A study of Homo sapiens with 6 samples.

Results

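The mevalonate and squalene arm of cholesterol synthesis was followed through 9 enzyme genes, HMGCS1, MVK, PMVK, MVD, IDI1, FDPS, FDFT1, SQLE and LSS, in MDA-MB-231 cells given Azeliragon. The genes were taken by name from the deposited count table, where all 9 were found among 58733 named entries, and all 9 passed the filter on low counts that left 16081 genes in the test. MDA-MB-231 is an established human line from a triple-negative breast cancer and grows with a mesenchymal form, here in medium with serum, so the cells could also take up lipoprotein cholesterol. Cells were kept for 72 h in Azeliragon at 2 µM, a compound that blocks the receptor RAGE, or for 72 h in DMSO, and polyadenylated RNA was sequenced in 3 libraries per condition, lettered a, b and c. Nothing in the labels ties a, b and c to separate cultures, so each p-value reflects library-to-library spread alone, which could be technical.

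The arm starts in the cytosol, where acetyl-CoA units are joined to HMG-CoA, and HMG-CoA is reduced to mevalonate. Mevalonate is phosphorylated and decarboxylated to isopentenyl pyrophosphate, the building block of all isoprenoids, and these blocks are joined to farnesyl pyrophosphate. Farnesyl pyrophosphate is a branch point: it can be turned into squalene and then lanosterol, the first sterol, or leave for protein prenylation, ubiquinone, dolichol and haem A. Many genes of the arm are known targets of SREBP2, a membrane-bound transcription factor that is released when sterols in the endoplasmic reticulum run low, and in promoters of such genes SREBP sites often lie beside sites for NF-Y and Sp1.

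With Azeliragon 8 of the 9 enzymes rose, none fell and PMVK did not pass the threshold of an adjusted p under 0.05 (edgeR quasi-likelihood test, Benjamini-Hochberg over all 16081 genes). Over all genes tested 6.27% passed, 2.75% as higher and 3.53% as lower. The rises were between 1.33-fold and 2.02-fold, largest for HMGCS1 at the start of the arm and SQLE near its end. The median log2 fold change of the 9 enzymes was 0.58, and that of all genes tested was 0.00. The 8 enzymes that rose also showed no overlap between the libraries of the conditions, which held for 25.3% of all genes in either direction and for 12.1% as higher with Azeliragon.

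Promoter sequences are shown for HMGCS1 and PMVK, the enzymes with the largest and the smallest change. The sequences are from RefSeq on GRCh38.p14, which gave windows for HMGCS1, MVK, PMVK, MVD, IDI1, FDPS and LSS, 7 of the 9 genes, FDFT1 and SQLE being named only, and cover the 250 bases before an annotated transcription start, written 5′ to 3′ on the strand of the gene. HMGCS1 has a pair of annotated starts, and the window of the upstream one, chr5:43313413-43313662 on the minus strand, is shown. The PMVK window is chr1:154936720-154936969, also on the minus strand. RefSeq starts differ in part from the gene positions given below, which are from GENCODE. By those positions the PMVK window lies wholly inside PMVK, which starts at 154936991 on its strand. The MVK window, chr12:109573544-109573793, also lies wholly inside its gene, which starts at 109573255 on the plus strand. Capitals mark CCAAT, the core letters bound by NF-Y, and GGGCGG, bound by Sp1, on either strand.
HMGCS1: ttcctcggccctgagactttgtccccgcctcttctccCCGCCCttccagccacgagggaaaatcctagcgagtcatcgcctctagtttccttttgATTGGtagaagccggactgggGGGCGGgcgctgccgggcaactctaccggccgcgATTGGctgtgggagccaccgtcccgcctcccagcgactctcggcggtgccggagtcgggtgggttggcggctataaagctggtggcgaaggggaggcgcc
PMVK: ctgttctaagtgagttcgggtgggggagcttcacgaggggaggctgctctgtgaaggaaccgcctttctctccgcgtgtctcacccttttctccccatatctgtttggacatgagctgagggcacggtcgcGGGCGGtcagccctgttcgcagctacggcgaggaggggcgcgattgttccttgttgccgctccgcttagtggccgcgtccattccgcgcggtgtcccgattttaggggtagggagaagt
The HMGCS1 window held CCAAT at 2 positions and GGGCGG at 2, and the PMVK window held GGGCGG at 1 position and CCAAT at 0. Of the 10 windows of the 7 genes, 7 held CCAAT and 10 held GGGCGG, against 32.0% and 42.6% of the 35116 windows of all genes. The 6 genes with a window other than PMVK held CCAAT in at least 1 window, and in IDI1 matches on both strands overlapped. The other HMGCS1 window, chr5:43313182-43313431, held CCAAT at 0 positions and GGGCGG at 2. An IDI1 window, chr10:1056705-1056954, also held CCAAT at 0 positions. By GENCODE positions that HMGCS1 window lies wholly inside its gene, which starts at 43313512 on the minus strand. That IDI1 window lies upstream of the GENCODE start of IDI1, which is at 1049170 on the minus strand. HMGCS1 and IDI1 had more than 1 window each and PMVK had 1, while the shares over all genes count single windows. The letters TCACNCCAC, a form of the sterol regulatory element core, were found in 0 of the 10 windows and in 0.883% of all windows. A match of letters is a description of the sequence and no evidence of binding. Windows before the GENCODE starts were not searched. Whether the CCAAT count of 0 for PMVK depends on the start used was therefore not tested. Whether these letters relate to the changes of the enzymes was not tested.

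Counts were deep for every enzyme, and the libraries held 41455979 to 44313584 counts each. The enzymes had between 1263 and 18834 reads per library, while 1 read was worth 0.0226 to 0.0241 CPM before TMM factors. All CPM values below are counts scaled to library size with TMM factors. The mesenchymal markers VIM, at 1745 to 2189 CPM, and AXL, at 1332 to 1708 CPM, were high, and PGR and CDH1 had at most 1 read in any library. ESR1 had 10, 9 and 14 reads in Azeliragon libraries, against 0, 0 and 5 reads in DMSO libraries, and ERBB2 stood at 104 to 114 CPM over all libraries. Summed luminal markers (EPCAM, KRT8, GATA3), nearly all KRT8, stood at 996 to 1034 CPM in Azeliragon libraries and 1018 to 1172 CPM in DMSO libraries. The defining markers of liver, the organ with the most cholesterol synthesis, were at or near 0, with the summed level of ALB, APOB and CYP7A1 at 0.0229 to 0.0723 CPM in Azeliragon libraries and 0.0695 to 0.177 CPM in DMSO libraries. Of the immune markers, PTPRC stayed at or under 0.0695 CPM and LYZ at or under 0.0965 CPM in every library. Summed endothelial markers (PECAM1, VWF) and adipocyte markers (ADIPOQ, PLIN1) stayed under 1 CPM in every library, and APOB, ADIPOQ and CD3E were at 0 in all. On the first principal component DMSO a scored -0.23, apart from DMSO b at 30.1 and DMSO c at 33.7, with Azeliragon scores of -23.0 to -19.0, so the log2 fold changes of the enzymes are also given without DMSO a.

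The early enzymes make isopentenyl pyrophosphate. HMGCS1, the cytosolic HMG-CoA synthase (chromosome 5 at 43289395 to 43313512, minus strand; GRCh38, GENCODE 29), had 149.8, 147 and 144 CPM in Azeliragon libraries a, b and c, against 74.0, 73.5 and 70.4 CPM in DMSO libraries a, b and c. The libraries of each condition lay close together and far from those of the other, with the lowest Azeliragon library 1.94-fold above the highest DMSO library. The gene rose 2.02-fold (log2 fold change 1.02, SE 0.06; adjusted p = 4.22e-06), and with any single library left out the adjusted p was at most 0.000272.

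MVK, mevalonate kinase (chromosome 12 at 109573255 to 109598117, plus strand), had 145, 149.9 and 149.9 CPM in Azeliragon libraries, against 104, 111 and 121 CPM in DMSO libraries. The conditions did not overlap, but the nearest libraries were only 1.198-fold apart. MVK rose 1.33-fold (log2 fold change 0.41, SE 0.07; adjusted p = 0.00421). It lies beside MMAB, which is on the opposite strand and overlaps it, and MMAB held 56.3% as many reads as MVK with a log2 fold change of 0.14 that did not pass (adjusted p = 0.342). Without a stated strand setting, reads of this pair in the overlap cannot be assigned with certainty.

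PMVK, phosphomevalonate kinase (chromosome 1 at 154924734 to 154936991, minus strand), was the exception. It had 57.1, 56.2 and 52.7 CPM in Azeliragon libraries, against 49.5, 60.3 and 68.6 CPM in DMSO libraries. The Azeliragon values lay inside the wide DMSO range. Its log2 fold change was -0.10 (95% interval -0.33 to 0.12; adjusted p = 0.624), so the interval excludes a rise as large as that of any other enzyme of the arm as fitted, the smallest of which was 0.41. The PMVK value depended on the DMSO libraries: without DMSO a its log2 fold change was -0.22 and passed as lower (adjusted p = 0.0193, as did 10.8% of all genes), and without DMSO c it was 0.011 (adjusted p = 0.97). With the trend on gene length and GC content removed as well, the value without DMSO a was -0.069 and did not pass (adjusted p = 0.443), and with the trend removed over all libraries it was -0.0036.

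MVD, which decarboxylates mevalonate pyrophosphate (chromosome 16 at 88651935 to 88663161, minus strand), had 203, 205 and 205 CPM in Azeliragon libraries, against 107, 131 and 138 CPM in DMSO libraries. The Azeliragon libraries were nearly identical, and DMSO a was the lowest of all. MVD rose 1.63-fold (log2 fold change 0.71, SE 0.09; adjusted p = 0.000446), and without DMSO a the log2 fold change was 0.60. IDI1, the isomerase that turns isopentenyl into dimethylallyl pyrophosphate (chromosome 10 at 1039152 to 1049170, minus strand), had 130.3, 133 and 127 CPM in Azeliragon libraries, against 86.9, 100.2 and 107 CPM in DMSO libraries. Its conditions were the closest among the enzymes that rose, with the nearest libraries 1.19-fold apart. IDI1 rose 1.33-fold (log2 fold change 0.41, SE 0.08; adjusted p = 0.0082), and this call was lost without Azeliragon a (adjusted p = 0.0611) or Azeliragon b (adjusted p = 0.0564), where 1.06% and 1.13% of all genes passed as higher.

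FDPS, which joins the isoprenoid blocks to farnesyl pyrophosphate (chromosome 1 at 155308748 to 155320666, plus strand), had 300.5, 308 and 299 CPM in Azeliragon libraries, against 193, 204 and 211 CPM in DMSO libraries. Every Azeliragon library was at least 1.42-fold above every DMSO library. FDPS rose 1.49-fold (log2 fold change 0.58, SE 0.06; adjusted p = 0.000146). Its antisense neighbour RUSC1-AS1 held 3.43% as many reads and did not pass (log2 fold change 0.07, adjusted p = 0.788), and of 8 FDPS pseudogenes none had more than 48 reads over all libraries.

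The squalene enzymes commit the chain to sterols. FDFT1, squalene synthase (chromosome 8 at 11795573 to 11839309, plus strand), had 438, 431 and 419.6 CPM in Azeliragon libraries, against 264, 258 and 285 CPM in DMSO libraries. The conditions were well apart, and DMSO a lay between the other DMSO libraries. FDFT1 rose 1.60-fold (log2 fold change 0.67, SE 0.06; adjusted p = 5.65e-05). SQLE, squalene epoxidase and a known control point of sterol synthesis (chromosome 8 at 124998497 to 125022283, plus strand), had 69.0, 67.5 and 66.9 CPM in Azeliragon libraries, against 38.2, 35.7 and 29.3 CPM in DMSO libraries. Its Azeliragon libraries were within a few percent of each other while DMSO c was well under DMSO a and b. SQLE rose 1.97-fold (log2 fold change 0.98, SE 0.09; adjusted p = 7.50e-05), with a log2 fold change of 1.06 without DMSO a and 0.88 without DMSO c. LSS, which folds epoxidised squalene into lanosterol (chromosome 21 at 46188141 to 46228824, minus strand), had 322, 326 and 336 CPM in Azeliragon libraries, against 250.4, 225 and 235 CPM in DMSO libraries. DMSO a was the highest DMSO library here and still below every Azeliragon library. LSS rose 1.38-fold (log2 fold change 0.47, SE 0.06; adjusted p = 0.000796).

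**Figure D1:**
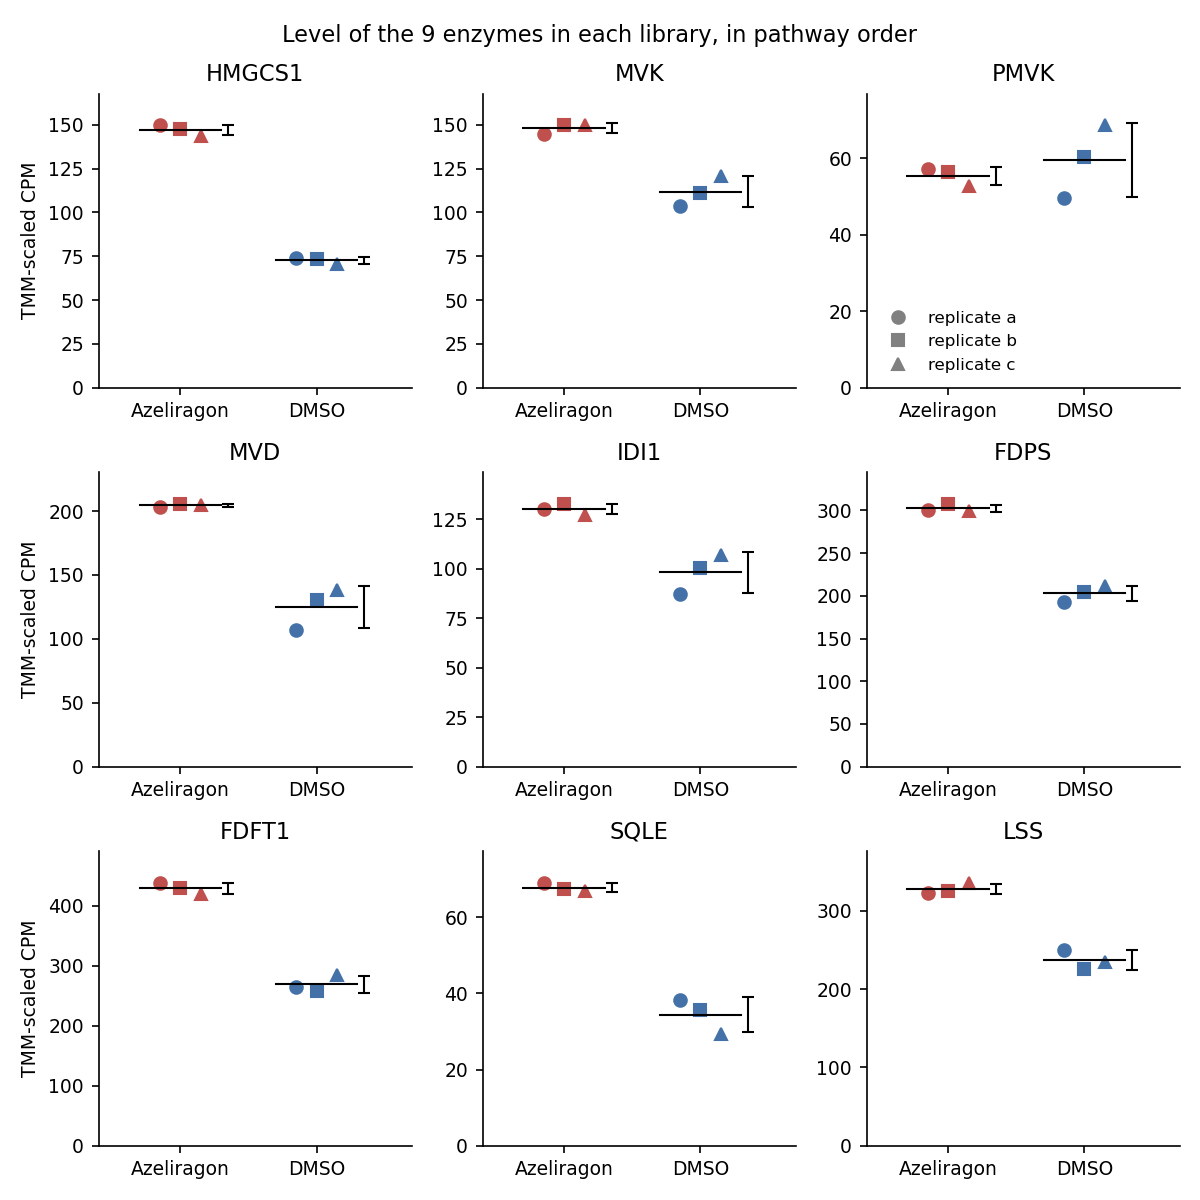
Level of each enzyme in the 6 libraries, in TMM-scaled CPM on axes that start at 0, with Azeliragon left of DMSO. Points are libraries (circle a, square b, triangle c), the line is the mean and the bar beside it the SD over 3 libraries. Azeliragon libraries lie above all DMSO libraries for 8 enzymes, and inside the DMSO range for PMVK.

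In a test against a 1.5-fold change (glmTreat of edgeR), HMGCS1 and SQLE passed as higher, with adjusted p = 0.00143 and 0.035, and the other 7 enzymes did not. Only 0.0622% of all genes tested passed as higher in that test. The enzymes did not change in a steady order along the arm: the log2 fold change was 1.02 at HMGCS1, 0.41 at MVK, -0.10 at PMVK, 0.71 at MVD, 0.41 at IDI1, 0.58 at FDPS, 0.67 at FDFT1, 0.98 at SQLE and 0.47 at LSS. From IDI1 to SQLE each enzyme had a larger value than the one before it.

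**Figure D2:**
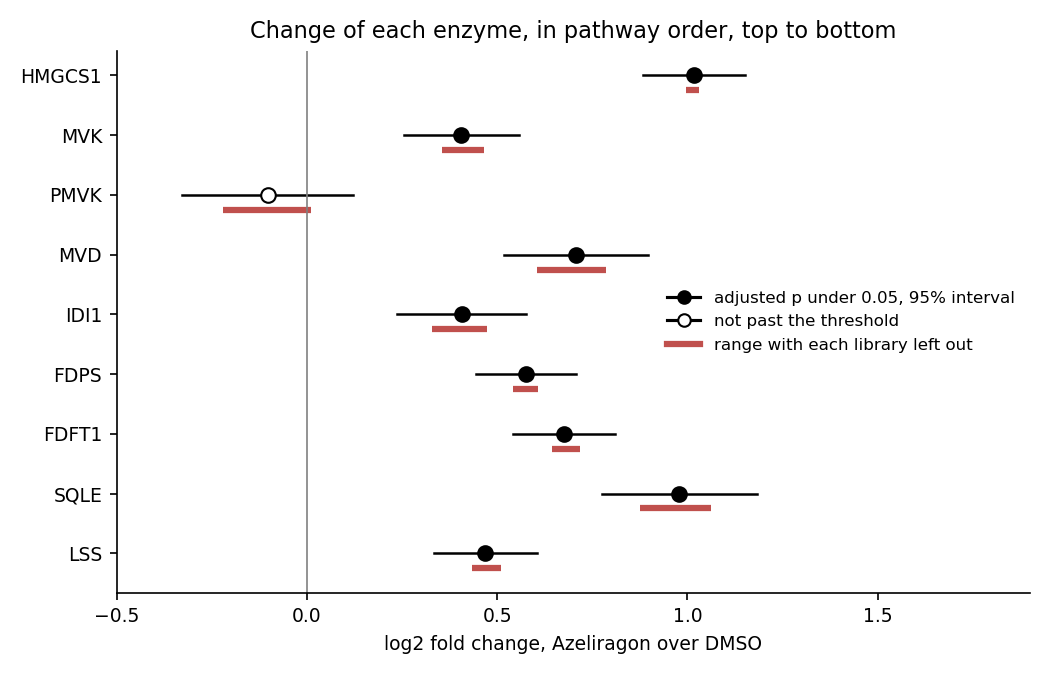
Log2 fold change of each enzyme, Azeliragon over DMSO, from the first listed enzyme at the top to lanosterol formation at the bottom. Black lines are 95% intervals of the edgeR fit, filled points passed the threshold, and red bars give the range when each library is left out in turn. HMGCS1 (1.02) and SQLE (0.98) stand highest and the interval of PMVK spans 0.

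The ratio of an enzyme to its neighbour in the arm compares the changes within each library, free of library scaling. For all 8 pairs of neighbouring listed enzymes the log2 ratios in Azeliragon libraries did not overlap those in DMSO libraries, as for 29 of all 36 pairs among the 9 genes. The share over pairs of other genes is not given here. The lack of overlap therefore cannot be called particular to neighbours in the arm. With 3 libraries against 3 each pair gave an exact permutation p of 0.1 (two-sided, also 0.1 after Benjamini-Hochberg adjustment over 8 pairs), the smallest this design can give, so no pair could pass 0.05. MVD relative to PMVK moved most, with a log2 ratio of 1.89 ± 0.07 in Azeliragon libraries and 1.08 ± 0.06 in DMSO libraries (SD, n = 3 each). MVK relative to HMGCS1 stood at 0.01 ± 0.05 in Azeliragon libraries and 0.62 ± 0.15 in DMSO libraries (SD, n = 3 each). LSS relative to SQLE stood at 2.27 ± 0.05 in Azeliragon libraries and 2.79 ± 0.19 in DMSO libraries (SD, n = 3 each). FDFT1 relative to FDPS moved least, at 0.51 ± 0.03 in Azeliragon libraries and 0.41 ± 0.06 in DMSO libraries (SD, n = 3 each). With the enzymes placed by the size of their change instead, the ratios of 2 of 8 neighbours did not overlap between conditions, FDFT1 to FDPS and MVK to PMVK. For HMGCS1 and SQLE, SQLE and MVD, MVD and FDFT1, FDPS and LSS, LSS and IDI1, and IDI1 and MVK the ratios overlapped. That order was taken from these same changes, so neighbours in it differ little by construction. With 3 libraries against 3, overlap or its absence does not settle which of these enzymes differ in size.

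Levels between enzymes were compared per kilobase of exon, since longer transcripts give more reads. On that scale FDFT1 stood at 82.5 ± 1.8 and FDPS at 81.4 ± 1.2 CPM per kb in Azeliragon libraries, against 51.7 ± 2.7 and 54.6 ± 2.5 CPM per kb in DMSO libraries (SD, n = 3 each). SQLE was the lowest enzyme in both conditions, at 15.7 ± 0.26 CPM per kb with Azeliragon and 7.99 ± 1.1 CPM per kb in DMSO (SD, n = 3 each). HMGCS1 stood at 31.3 ± 0.65 CPM per kb with Azeliragon and 15.4 ± 0.41 CPM per kb in DMSO (SD, n = 3 each), so the enzymes with the largest rises were the lowest and the next lowest of the arm in DMSO. PMVK stood at 43.2 ± 1.8 CPM per kb with Azeliragon and 46.5 ± 7.5 CPM per kb in DMSO (SD, n = 3 each), the third highest level in DMSO. The highest enzyme was 5.24-fold above the lowest with Azeliragon and 6.83-fold above it in DMSO. These levels use all annotated exons of a gene, so an enzyme whose long isoforms are unused is understated.

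Summed over the 9 enzymes, the arm held 1815, 1823 and 1800.0 CPM in Azeliragon libraries, against 1167, 1199 and 1266 CPM in DMSO libraries. The conditions were far apart, and the Azeliragon libraries were close to each other. The sum averaged 1813 ± 12 CPM with Azeliragon and 1210.4 ± 50.5 CPM in DMSO (SD, n = 3 each), a 1.498-fold difference. FDFT1, LSS and FDPS made up 58.5% of it with Azeliragon and 58.6% in DMSO. Each of the 9 enzymes had a smaller coefficient of variation with Azeliragon, 0.655% to 4.24%, than in DMSO, 2.63% to 16.1%, and 68.0% of all genes tested did so. Relative to the other DMSO libraries, DMSO a was the lowest for 5 enzymes (MVK, PMVK, MVD, IDI1 and FDPS), the highest for 3 (HMGCS1, SQLE and LSS) and between them for FDFT1. Without DMSO a the 8 enzymes passed as higher and PMVK as lower, where 12.9% of all genes passed as higher and 10.8% as lower. The log2 fold changes without DMSO a were 1.03 for HMGCS1, 0.35 for MVK, 0.33 for IDI1, 0.54 for FDPS, 0.66 for FDFT1 and 0.51 for LSS, beside those of PMVK, MVD and SQLE above.

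**Figure D3:**
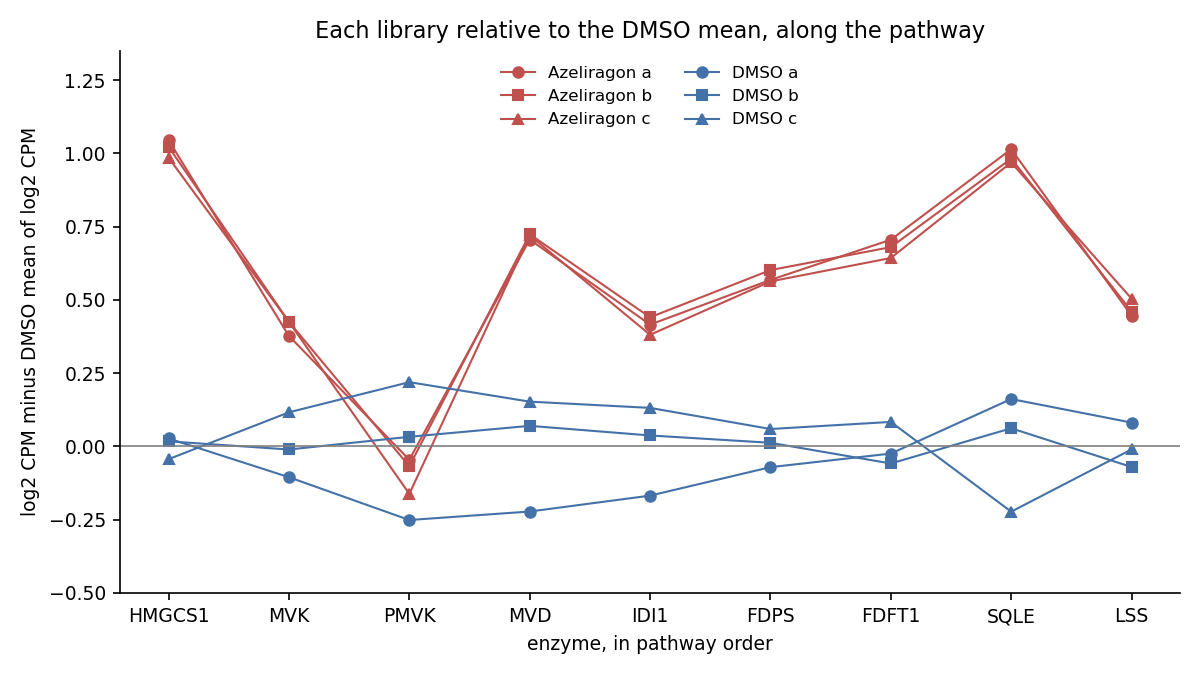
Log2 CPM of each library minus the DMSO mean of log2 CPM, for the 9 enzymes in pathway order. Red lines are Azeliragon libraries and blue lines DMSO libraries, with circle, square and triangle for a, b and c. The Azeliragon lines run together, with peaks at HMGCS1, MVD and SQLE and a dip at PMVK. The DMSO lines cross in several places, among them between HMGCS1 and MVK and between FDFT1 and SQLE.

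IDI2, the second isopentenyl isomerase, had 4 reads in Azeliragon libraries and 1 in DMSO libraries. Genes on the opposite strand overlap HMGCS1, IDI1, FDFT1 and LSS as well, with 86, 12, 40 and 254 reads over all libraries in the most counted of each, at most 0.347% of the reads of the enzyme. MVD, PMVK and SQLE have no overlapping gene in GENCODE 29.

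Genes that feed the arm moved in part. Of 8 tested genes of acetyl-CoA and HMG-CoA supply and use, 4 rose, 1 fell and 3 did not pass, with a list median log2 fold change of 0.14. ACAT2, the cytosolic thiolase that makes acetoacetyl-CoA, rose with a log2 fold change of 0.74, and ACSS2, which makes acetyl-CoA from acetate, with 0.50. The mitochondrial thiolase ACAT1 (log2 fold change -0.05) and the citrate carrier SLC25A1 (0.0089) did not pass. ACAT2 overlaps genes on the opposite strand, so its counts are uncertain. When a library was left out, DMSO a excepted, 3 of the 5 calls stood each time, and that of ACLY, the ATP citrate lyase (log2 fold change 0.26), was among those lost. In these settings 2.68% (without Azeliragon a) to 4.94% (without DMSO c) of all genes passed in either direction.

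Past lanosterol, 9 of 11 tested genes rose and none fell, with a list median log2 fold change of 0.56. DHCR7, MSMO1 and SC5D, enzymes of the later sterol steps, rose with log2 fold changes of 0.74, 0.75 and 0.82. CYP51A1, which acts on lanosterol right after LSS and is named here after its value was seen, rose 2.53-fold, with other genes overlapping it on both strands. LBR (log2 fold change 0.21) and TM7SF2 (0.12), which both carry sterol reductase activity at the same step, did not pass. The number that rose was 6 without Azeliragon a or without DMSO b, where 1.06% and 0.931% of all genes passed as higher. It was 10 without DMSO a, where 12.9% of all genes did so.

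The branches that draw isoprenoids away from sterols gave no call. Of 30 tested genes of protein prenylation, ubiquinone, dolichol and related products, 0 passed by edgeR, beside 6.27% of all genes, with a list median log2 fold change of 0.03 and values from -0.38 to 0.29. At an unadjusted p under 0.05 there were 7. The share of all genes at that level is not given here, so this count cannot be read as many or few. The count past the adjusted threshold was 0 by limma-voom, beside 6.39% of all genes. DESeq2 called 4, of which 1 rose and 3 fell, beside 8.84% of all genes. Without DMSO a 5 of the 30 passed as higher and 3 as lower, near the 12.9% and 10.8% of all genes in that setting. GGPS1, which extends farnesyl to geranylgeranyl pyrophosphate, had 5.09, 4.70 and 4.51 CPM in Azeliragon libraries, against 4.34, 4.89 and 5.45 CPM in DMSO libraries, and the conditions overlapped (log2 fold change -0.04, 95% interval -0.34 to 0.27; adjusted p = 0.919). ICMT, the methyltransferase of prenylated proteins, and COQ4, of ubiquinone synthesis, were the most abundant members, with log2 fold changes of 0.13 (adjusted p = 0.212) and -0.09 (adjusted p = 0.518). Whether the arm and its branches differ was not tested.

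Of 20 tested genes of SREBP control, sterol uptake and storage, 6 rose and 1 fell, with a list median log2 fold change of 0.09. NPC1, which moves cholesterol out of lysosomes, rose with a log2 fold change of 0.78, INSIG1, which holds SREBPs back, with 0.39, and SOAT1, which esterifies cholesterol, with 0.46. SREBF1, which encodes SREBP1, fell with a log2 fold change of -0.58. MBTPS1, the protease that cuts SREBPs (-0.12), and the lysosomal NPC2 (0.14) did not pass. NPC1 and SREBF1 overlap genes on the opposite strand. Without DMSO b 3 rose and 1 fell, where 0.931% of all genes passed as higher and 1.93% as lower. Without DMSO a 9 rose and 1 fell, where 12.9% of all genes passed as higher and 10.8% as lower. Of 7 tested genes of sterol export and LXR targets, 1 rose and 2 fell, with a list median log2 fold change of -0.27. The exporter ABCA1 fell with a log2 fold change of -1.69 and NR1H3, which encodes LXR-alpha, with -0.71, while the apolipoprotein gene APOC1 rose with 0.58. NR1H2, which encodes LXR-beta (-0.03), and MYLIP, a ligase for the LDL receptor that is also counted in the uptake list (-0.27), did not pass. The calls of NR1H3 and APOC1 were lost without Azeliragon a, Azeliragon c or DMSO b, and that of APOC1 also without Azeliragon b. ABCA1 and NR1H3 overlap genes on the opposite strand.

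**Figure D4:**
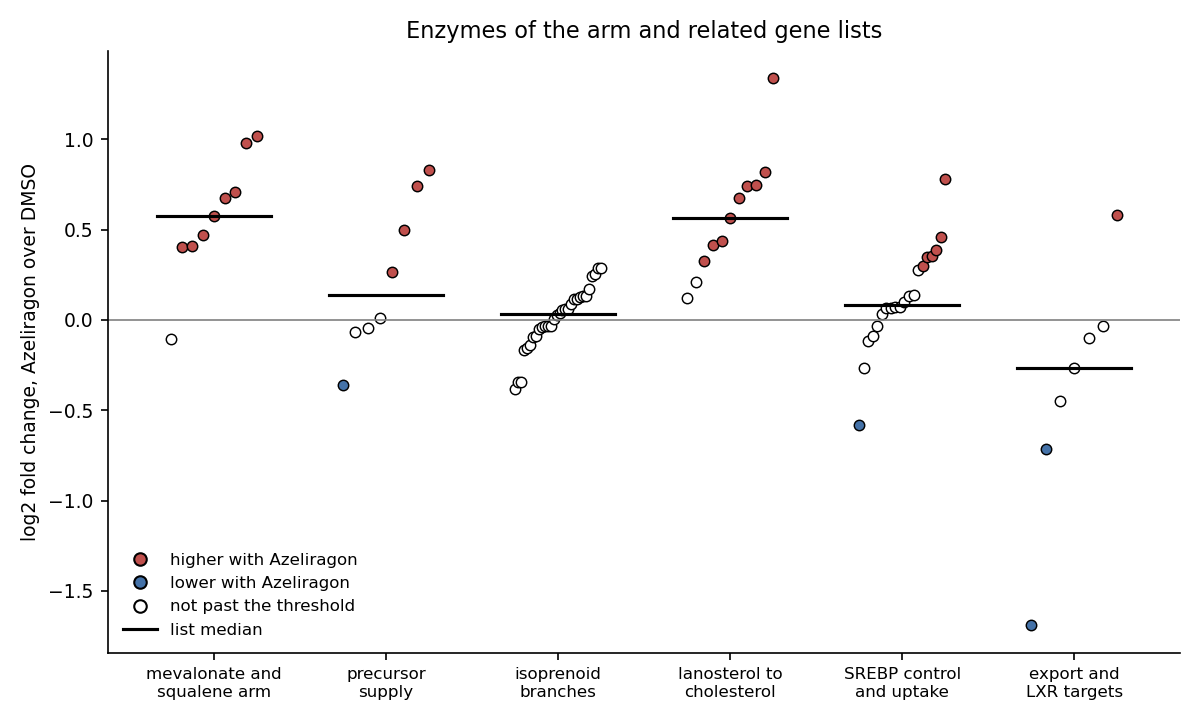
Log2 fold change, Azeliragon over DMSO, of each tested gene in 6 lists, with the list median as a black line. Red points passed as higher, blue points as lower, and white points did not pass. The arm (median 0.58) and the steps from lanosterol to cholesterol (0.56) lie highest, and the isoprenoid branches (0.03) hold no called gene.

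Most of the enzymes shared a pattern over the 6 libraries. The correlation of an enzyme with the mean of the other 8, on centred log2 CPM, was between 0.913 for SQLE and 0.999 for FDPS, and -0.25 for PMVK. These values describe 6 libraries that fall into the conditions, and carry no test. Of the 9939 other genes that averaged 5 CPM or more, the 5 most like the mean of the enzymes were PPP1R15A (Pearson r = 0.998), MAPKAPK3 (0.997), PEA15 (0.996), ACAT2 (0.996) and MSMO1 (0.995). Choosing genes by this likeness favours those that differ between the conditions. Their separation and adjusted p are therefore descriptions that partly follow from the choice. PPP1R15A, a stress-induced regulatory subunit of protein phosphatase 1, had 436, 416 and 409.8 CPM in Azeliragon libraries, against 234, 249.5 and 261 CPM in DMSO libraries, with no overlap (log2 fold change 0.76, SE 0.06; adjusted p = 3.55e-05). MAPKAPK3 did not pass the threshold (log2 fold change 0.21; adjusted p = 0.0585), and PEA15 rose with a log2 fold change of 0.27 (adjusted p = 0.0115). ACAT2 and MSMO1 are themselves genes of cholesterol synthesis.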

How the data were processed

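MDA-MB-231 cells treated with 2 µM Azeliragon or DMSO for 72 h were profiled by RNA sequencing of polyadenylated RNA, 3 libraries each. The authors deposited raw counts per gene. STAR 2.6.1d, featureCounts 1.5.0-p3, limma and GRCh38 are named, without their roles, per the submitters' processing notes. The strand setting, the handling of multi-mapping reads and the annotation used: not given in the sources used here. Of 58735 entries 2 had names turned into numbers and held 0% of counts. They were left out. Positions, lengths and overlaps come from GENCODE 29 (GRCh38).

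Genes were kept with filterByExpr and compared on the whole table with glmQLFit and glmQLFTest of edgeR 4.0.16 after TMM scaling, with treatment as the only term and Benjamini-Hochberg adjustment (threshold 0.05). SEs and 95% intervals follow from the quasi-likelihood F. The fit was tested on simulated data with the same spread per gene in both conditions, so the unequal spread given below was not covered. Alternatives used DESeq2 1.42.0 and limma 3.58.1, in R 4.3.3 with Python 3.11.15. No pair of libraries was a copy (chi-square per degree of freedom at least 4.62). The biological CV over all genes was 5.64% with Azeliragon and 12.5% in DMSO.

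The enzymes, gene lists, motifs and tests were chosen with earlier results of these data known. Named genes were all 9 enzymes, up to 4 called genes by adjusted p and up to 2 abundant uncalled genes per list, and the 5 genes most like the enzymes. Some genes that this rule names are not reported here. ACLY, CYP51A1 and GGPS1 were added after their values were seen.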

Additional observations from a re-analysis of the deposited data

How the results depend on the processing

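The count of enzymes called was 8 with RLE size factors, library totals, no filter, a stricter filter on low counts, DESeq2, limma-voom and the trend on length and GC content removed with or without DMSO a. It was 7 to 9 with each library left out and 2 against a 1.5-fold change (glmTreat). Of all genes in either direction, 6.31% passed with RLE, 5.8% with library totals, 5.78% with no filter and 8.06% with the stricter filter. DESeq2 gave 8.84%, limma-voom 6.39%, the trend removed 10.5%, and the trend removed without DMSO a 24.4%. Leaving out each library gave 2.68% to 23.7%, and the 1.5-fold test 0.367%. The direction of the 8 enzymes that rose held under all 16 other settings. PMVK lay between -0.22 and 0.011 (log2) with each library left out, the positive value being that without DMSO c. The cause was not tested. The summed level was 0.58 (log2 difference), and 0.56 to 0.62 over library totals, RLE and each library left out. All genes called numbered 1009. They were 1685 with no filter, 1685 with the length and GC trend removed, 4027 with that trend removed and DMSO a left out, 59 against a 1.5-fold change, and 445 (without Azeliragon a) to 3916 (without DMSO a) with each library left out. Same-letter libraries did not deviate together (correlations 0.03, 0.02 and -0.04), and libraries of different letters gave -0.08 to 0.06. With 3 libraries per condition, these correlations cannot show whether libraries of a letter were handled together, and the labels do not say. With the letter as a replicate block, 908 genes (5.65%) and 8 enzymes were called. Each enzyme had at least 1263 reads in every library.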
